A study of Saccharomyces cerevisiae with 12 samples.

Results

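Convergent intergenic regions lie between a left gene read towards the right end of the chromosome and a right gene read towards the left end, so that both neighbours end there and neither starts there. They were chosen by the systematic names of the flanking genes, a left name ending its number in W and a right name ending its number in C, and regions within 30000 bp of the first base or of the largest listed end of their chromosome were left out. This gave 1104 of the 4532 intergenic regions listed for Saccharomyces cerevisiae, after 62 convergent regions near chromosome ends had been set aside. The closest region kept lay 30189 bp from an end and the farthest one left out lay 29542 bp from an end. The other interior regions were 2092 tandem regions, with both genes read the same way, and 1103 divergent regions, with both genes starting there.

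Sequence-specific transcription factors in yeast act mostly from promoters, upstream of the gene they regulate, where nucleosomes are sparse. A convergent region holds instead the 3′ ends and terminators of 2 genes. The measurement was a calling card assay, in which a factor is joined to Sir4, the silencing protein that steers the retrotransposon Ty5 into chromatin, so that Ty5 integrates near positions where the fusion protein sits. Each integration is an insertion, or hop, and the number of insertions in a region, as a share of all intergenic insertions of a library, is the level reported here.

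The study held 12 libraries, each the only one of its group, so no difference was checked on replicates, and the tests set 1 library against another set of insertions and do not compare conditions. All strains lacked SIR4 (sir4D), and each culture began from a single clone with a plasmid for the fusion, joined to Sir4 at its C-terminus, and a plasmid for a HIS3-marked Ty5 under the GAL1/10 promoter. Full-length Cbf1, Cbf1 bHLH-ZIP (its basic helix-loop-helix with its leucine zipper), Cbf1 bHLH (no zipper), NPAS2 bHLH (from a mammalian circadian factor) and NPAS2 bHLH with Cbf1 ZIP were expressed in BY4741 sir4D cbf1D. Cbf1 bHLH-ZIP with Tye7 basic region was expressed in BY4742 sir4D cbf1D, Tye7 in BY4741 sir4D tye7D, and Gcr1, Gcr2, Cst6 and TEF1p-Tye7 (Tye7 under the TEF1 promoter) in BY4741 sir4D. TEF1p-Tye7 gcr2D carried the same Tye7 form in BY4741 sir4D gcr2D. Cells spent 3 days on galactose, 2 days on YPD and 3 days on medium without histidine and with 5-FOA. Libraries held 3341 to 54385 insertions, 2415 to 37782 of them intergenic. Each was set against the background counts deposited with it, a set of 66271 intergenic insertions for 9 libraries and a set of 53808 for Gcr1, Gcr2 and Cst6.

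The working name of the class, regions without a promoter, could apply to 912 of the 1104 regions, 82.6%, judged by annotated genes alone. Promoter activity was not examined. In the order of genes of the R64 annotation, these 912 had no other annotated gene between their named neighbours. The other 192 spanned at least 1 gene that the region list does not name, and therefore may hold a promoter. In 165 of them a protein-coding gene lay between, and in 27 only RNA genes did, 20 of these with a tRNA gene. The 912 regions were short, with a median length of 220.5 bp (range 5 to 3575 bp), against a median of 1753 bp (161 to 4899 bp) for the 192. Together the 1104 regions covered 629280 bp, 17.3% of the listed intergenic sequence, and the 912 covered 239705 bp, 6.59%. All 2208 flanking identifiers were found in the annotation. The division into 912 and 192 was made after the files had been seen, and both groups are given throughout, as regions with no other gene and regions with another gene.

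Convergent regions received fewer insertions per base than the other classes in each of the 12 libraries. Over all 1104 regions the density ranged from 2.33 insertions per kb per 100000 intergenic insertions for NPAS2 bHLH with Cbf1 ZIP to 15.5 for Cst6, with a median of 7.77. The ratio of convergent to tandem density ran from 0.0697 for NPAS2 bHLH with Cbf1 ZIP to 0.717 for Cst6, with a median of 0.264, and the ratio of convergent to divergent density ran from 0.0609 to 0.321 in those libraries, with a median of 0.224. The exact 95% interval of each ratio, which covers counting error only, lay below 1 in 12 of 12 libraries for both ratios. The background sets showed the same order of classes. The ratio of convergent to tandem density was 0.484 (95% interval 0.471 to 0.498) in the larger set and 0.454 (0.440 to 0.469) in the smaller one.

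With only the regions that span no other gene the gap was wider. The 912 convergent regions held 1.17 insertions per kb per 100000 for NPAS2 bHLH with Cbf1 ZIP, a median of 4.77 over the libraries and 9.92 for Cbf1 bHLH. Set against the 1600 tandem regions of that kind, the ratio of densities ran from 0.0226 to 0.281, with a median of 0.158. Set against the 853 divergent regions of that kind it ran from 0.0243 to 0.212, with a median of 0.105. In the larger background set these ratios were 0.335 (0.319 to 0.351) and 0.272 (0.260 to 0.286). The lowest convergent to divergent ratios among the full-length factors and Cbf1 forms belonged to Cbf1 bHLH-ZIP, at 0.0334 (0.0252 to 0.0433), Cbf1 bHLH-ZIP with Tye7 basic region, at 0.0408 (0.0316 to 0.0520), and Cbf1, at 0.0595 (0.0530 to 0.0665). Convergent regions that span another gene also had a lower density than tandem regions that do, in 11 of 12 libraries. The exception was Cst6, with a ratio of 1.12 (1.08 to 1.17). Its fullest convergent region of this kind, AAC3-IST2, held 26.3% of the Cst6 insertions in convergent regions with another gene.

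**Figure D1:**
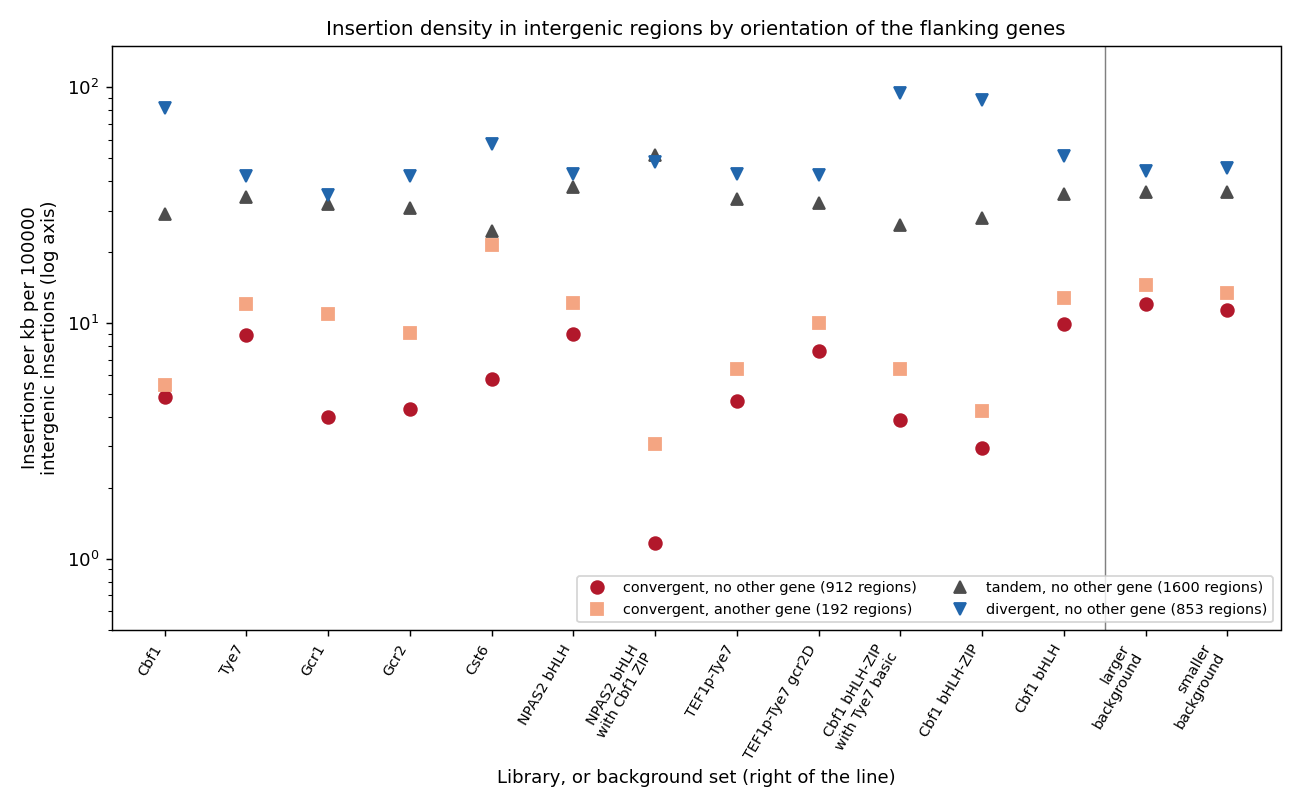
Insertion density (insertions per kb per 100000 intergenic insertions, log axis) in each of the 12 libraries and, right of the line, in both background sets, for convergent regions with and without another gene between and for tandem and divergent regions with no other gene between. The circles for the 912 convergent regions lie below the triangles for tandem and divergent regions in every column, from 1.17 to 9.92 over the libraries.

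The lower density of convergent regions was also seen among regions of similar length. The order of tandem and divergent regions changed with length. For Cbf1, tandem regions of 301 to 400 bp had 26.4 insertions per kb per 100000 and divergent ones 15.5. From 801 to 5000 bp they had 42.7 and 121. Among regions of 401 to 800 bp with no other gene, 112 convergent and 597 tandem, the ratio of densities ran from 0.130 to 0.425 over the libraries, with a median of 0.193, and 12 of 12 intervals lay below 1. Among regions of 201 to 300 bp, 236 convergent and 377 tandem, the median ratio was 0.297 and 11 of 12 intervals lay below 1. At 101 to 200 bp the median was 0.249, again with 11 of 12 intervals below 1, and the highest ratio was 0.956 for TEF1p-Tye7. Against divergent regions of 301 to 400 bp, 9 of 12 intervals lay below 1, and none of the length ranges of 101 bp and above had an interval above 1 in any library. The 94 convergent regions with no other gene that are shorter than 100 bp had too few counterparts in the other classes to be compared.

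**Figure D2:**
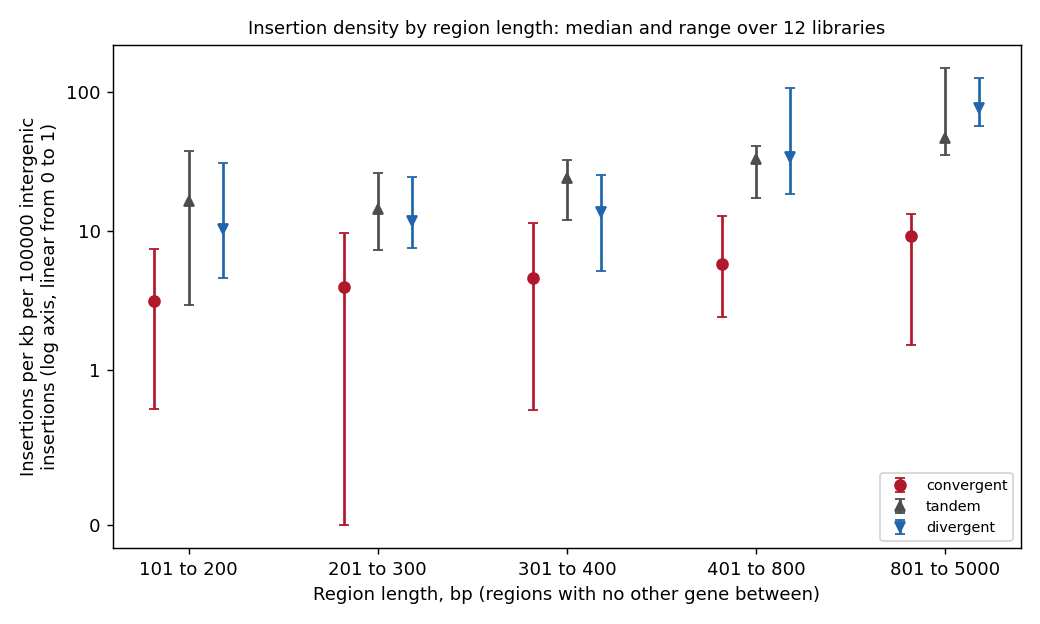
Insertion density of convergent, tandem and divergent regions with no other gene between, by region length in bp. Symbols give the median and bars the lowest and highest of the 12 libraries (log axis, linear from 0 to 1). The convergent median is the lowest of the 3 classes in each range drawn, all of them of 101 bp and above, and the convergent range overlaps that of the tandem regions up to 300 bp and that of the divergent regions up to 400 bp.

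Many convergent regions were never used. Of the 912 with no other gene, 320 (35.1%) held 0 insertions in all 12 libraries, and 113 of these also held 0 in both background sets. The same was true in the 12 libraries of 44 of 1600 tandem regions (2.75%) and 36 of 853 divergent regions (4.22%) with no other gene, which are longer on average, and of 5 of the 192 convergent regions with another gene (2.60%). A further 243 of the 912 held insertions in 1 library only. At the other end, 44 of the 912 held insertions in 6 or more libraries and none held them in all 12. DOM34-CIT1 (chromosome 14, 628618 to 629624 in the coordinates of the files; no source used here names their genome build) reached 11 libraries. It lies between the 3′ ends of DOM34, which acts in rescue of stalled ribosomes, and CIT1, the mitochondrial citrate synthase. It held 21 insertions for Cbf1, 19 for Cbf1 bHLH, 0 for NPAS2 bHLH with Cbf1 ZIP and 2 to 10 in the other libraries, beside 42 in the larger and 50 in the smaller background set. Its share was below background for Cst6, with 6 insertions, and for Gcr2, with 5 (Fisher's exact test, two-sided, Benjamini-Hochberg adjusted over all regions tested in that library, adjusted p = 9.24e-06 for Cst6 and 0.00315 for Gcr2).

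As a share of the intergenic insertions, convergent regions took less in 11 of 12 libraries than in the matching background. The shares were lowest for NPAS2 bHLH with Cbf1 ZIP, at 1.47% (42 insertions, 95% interval 1.06 to 1.98%), and highest for Cst6, at 9.73% (3678 insertions, 9.44 to 10.0%), with a median of 4.89%. The larger background set had 8.56% (8.35 to 8.78%) and the smaller one 7.95% (7.73 to 8.18%). For full-length Cbf1, a bHLH factor of methionine genes and centromeres, the ratio to background was 0.385 (0.359 to 0.413). For Tye7, a bHLH activator of glycolytic genes, it was 0.799 (0.749 to 0.853). Gcr1 and Gcr2, partners in the activation of glycolytic genes, gave 0.654 (0.607 to 0.703) and 0.576 (0.540 to 0.615). Cst6, a basic leucine zipper factor, stood alone above 1, at 1.22 (1.17 to 1.28). Without its fullest region, AAC3-IST2, the Cst6 ratio was 0.964 (0.919 to 1.01), and it was 1.01 to 1.02 with intervals that held 1 when positions were merged, the 10 fullest regions were left out or regions were widened by 200 bp.

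The Cst6 excess came with regions that span another gene. In these, the ratio to background was 1.59 (1.52 to 1.68) for Cst6, whereas in the 912 regions with no other gene it was 0.510 (0.461 to 0.564). The ratio of these ratios was 0.320 (0.286 to 0.359). A few called regions carried much of the 1.59. AAC3-IST2, AAT1-GFA1, YAP5-FLO11 and FOB1-PDS1 held 830, 642, 579 and 458 of the 3154 Cst6 insertions in regions with another gene. The background held 70, 21, 34 and 28 of its 2817 in them. The ratio without these regions was not computed, so 1.59 does not describe the group at large. In the 912 regions the ratio to background was below 1 with an interval below 1 in 12 of 12 libraries, from 0.0965 (0.0416 to 0.191) for NPAS2 bHLH with Cbf1 ZIP to 0.821 (0.748 to 0.899) for Cbf1 bHLH. Regions with no other gene were also further below background than those with another gene for Gcr1, with a ratio of ratios of 0.433 (0.358 to 0.522), Gcr2, with 0.560 (0.480 to 0.653), and Cbf1 bHLH-ZIP with Tye7 basic region, with 0.731 (0.541 to 0.979). In the other 8 libraries the interval of that ratio held 1.

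The regions called higher than background took 79.7% of the intergenic insertions for NPAS2 bHLH with Cbf1 ZIP, 68.9% for Cst6, 65.3% for Cbf1, 13.1% for Cbf1 bHLH and 0.911% for NPAS2 bHLH. With those regions left out of each library and of its background, an alternative chosen after the data had been seen and set by the calls themselves, the convergent share over background was 0.928 (0.861 to 1.00) for Cbf1, 1.00 (0.939 to 1.07) for Tye7, 0.878 (0.801 to 0.961) for Gcr1, 0.865 (0.807 to 0.926) for Gcr2, 0.768 (0.710 to 0.831) for Cst6 and 0.812 (0.584 to 1.10) for NPAS2 bHLH with Cbf1 ZIP. Leaving out regions because they were called higher moves these ratios by construction.

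**Figure D3:**
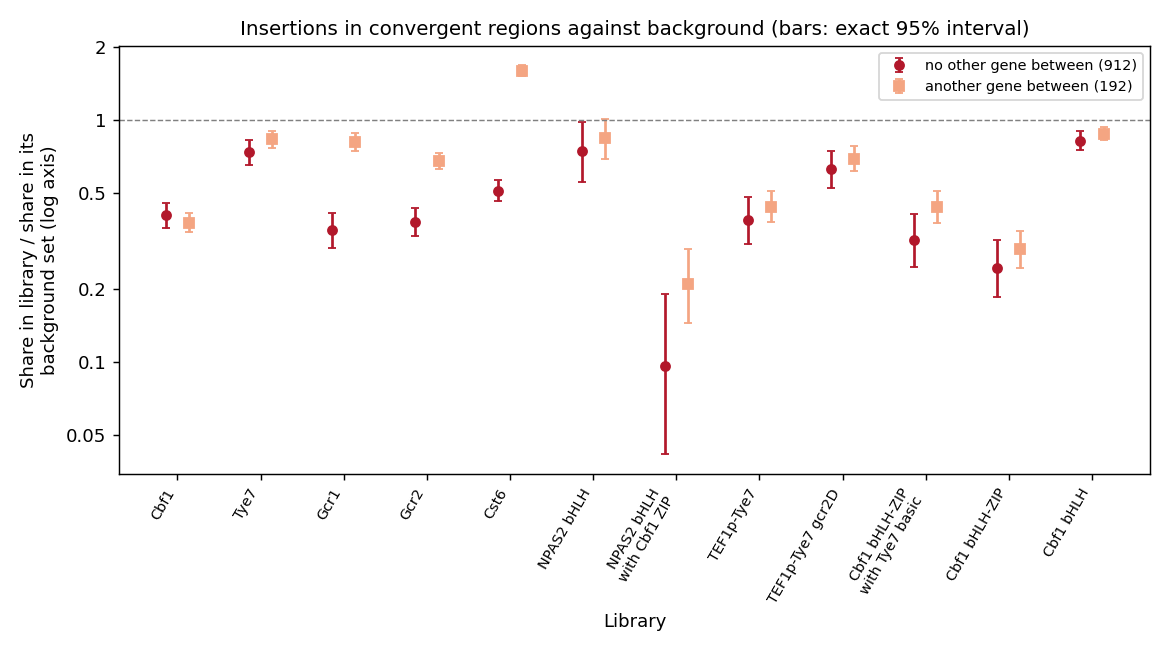
Share of intergenic insertions in convergent regions, each library over its background set (log axis), for the 912 regions with no other gene between and the 192 with another gene. Bars are exact 95% intervals for counting error, and the dashed line marks equal shares. Only Cst6 lies above the line, at 1.59, for regions with another gene, and at 0.510 for regions with none.

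Single regions were called when the adjusted p of the Fisher's exact test was under 0.05 and the ratio of shares, with 1 insertion added to each count, was at least 2. Only regions with 10 or more insertions in library and background together were tested, and 239 of the 1104 convergent regions, 74 of the 912 with no other gene, passed that filter in at least 1 library. Regions with few background insertions could pass it only through a library with many. Among those named below, this holds for BPL1-RPO21, TVP15-ARX1 and SFK1-LPX2 for Cst6. It also holds for SDH7-EMI1 and GPI15-IDH1 for Cbf1. These had 0 to 3 background insertions, so their calls are not independent of the filter. In all, 29 pairs of a library and a convergent region were called higher than background, in 6 libraries, and 147 lower. Cst6 had 12 of 149 tested convergent regions higher, beside 7.81% of all regions tested for Cst6. Cbf1 had 4 of 194, beside 7.37% of all regions. Gcr1 had 7 of 136 beside 3.40%, Gcr2 4 of 150 beside 3.10%, TEF1p-Tye7 gcr2D 1 of 182 beside 2.33%, and Cbf1 bHLH-ZIP 1 of 180 beside 4.20%. None was higher for Tye7 (0.767% of all regions), Cbf1 bHLH (2.75%), NPAS2 bHLH (0.0496%), NPAS2 bHLH with Cbf1 ZIP (2.66%), TEF1p-Tye7 (1.22%) or Cbf1 bHLH-ZIP with Tye7 basic region (3.44%). The 29 pairs belonged to 24 regions, 10 of them with no other gene.

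**Figure D4:**
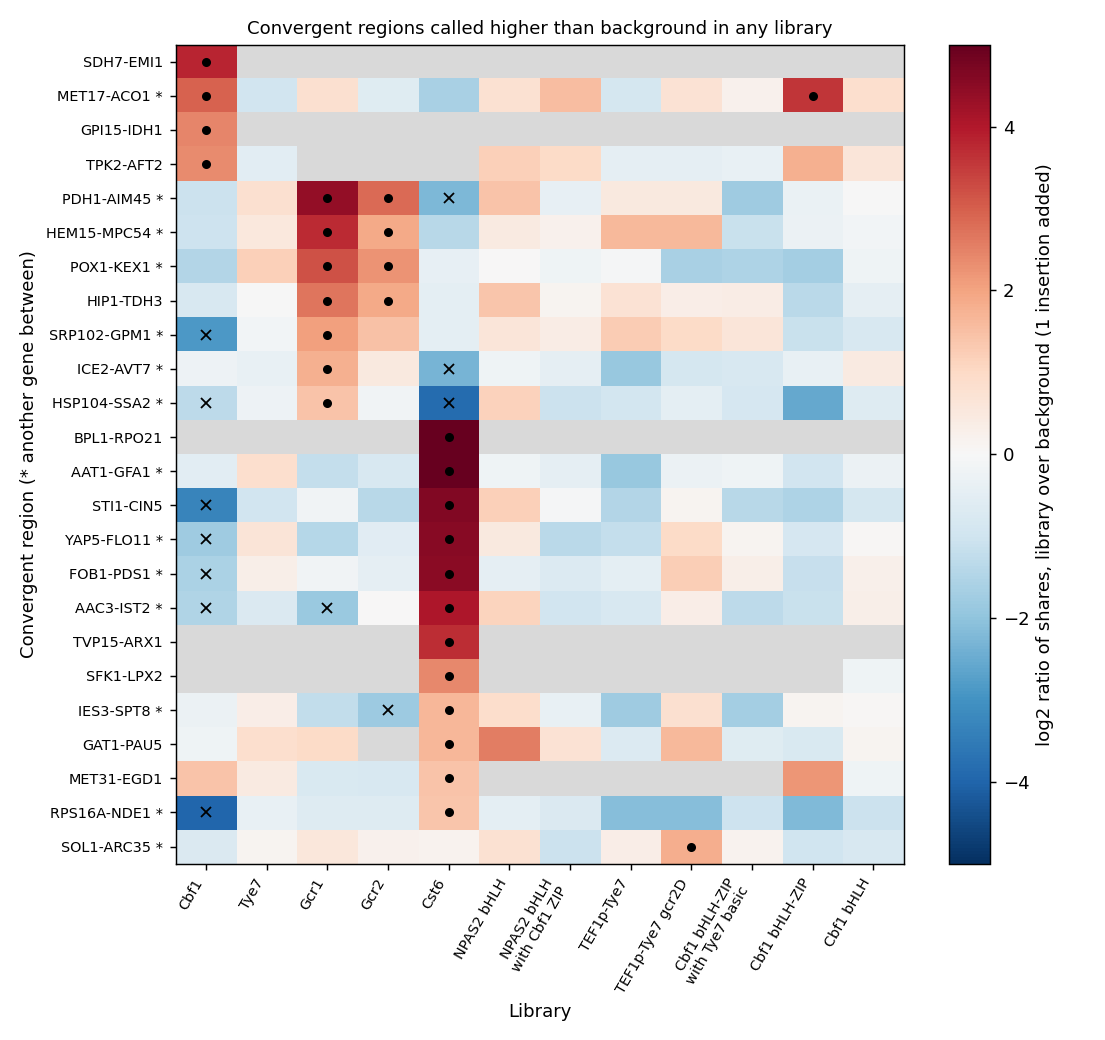
The 24 convergent regions called higher than background in any library, by library. Colour is the log2 ratio of shares, library over background, with 1 insertion added. Dots mark calls above and crosses calls below background. Grey cells had fewer than 10 insertions in library and background together, and an asterisk marks regions that span another gene. Apart from MET17-ACO1 and 4 regions shared by Gcr1 and Gcr2, each region is called higher in 1 library.

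For Cst6, 6 of 31 tested regions with no other gene were called higher, beside 7.81% of all tested regions. The 6 include 5 that the rule for named regions does not reach and that were chosen after their values were seen. STI1-CIN5 (chromosome 15, 382822 to 383533) lies between the 3′ ends of STI1, a co-chaperone of Hsp90, and CIN5, itself a basic leucine zipper factor. It held 191 insertions for Cst6, 0.506% of the library, against 10 in the background, a ratio of 27.2 (14.5 to 57.6; Fisher's exact test, adjusted p = 2.46e-58). The other 11 libraries held 0 to 4 insertions each, and for Cbf1 the region was called lower, with 0 against 23 (at least 3.14-fold lower; Fisher's exact test, adjusted p = 0.00406). All 3 runs of the Cst6 library, the sorted blocks of its insertion list, showed the excess, with 0.466 to 0.558% of their insertions. A window of 100 bp that begins 288 bp from the STI1 edge took 111 of the 191. Across the CIN5 gene, 886 bp away, the region CIN5-DFG16 upstream of CIN5 held 507 insertions for Cst6, against 15 in the background.

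BPL1-RPO21 (chromosome 4, 205112 to 205361) separates BPL1, the biotin ligase, from RPO21, the largest subunit of RNA polymerase II. It was used for Cst6 alone, with 57 insertions against 0 in the background (at least 27.1-fold higher, with 3 insertions as the floor for the background; Fisher's exact test, adjusted p = 4.91e-21). The other 11 libraries and both background sets held 0, so the region was tested only because of its Cst6 insertions. Of the 57 insertions, 44 came from 1 run, with 2 as the fewest in a run, and 42 lay within 100 bp. The nearest region called higher for Cst6 outside the convergent class lay 25165 bp away.

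The other 4 Cst6 regions with no other gene had fewer insertions. TVP15-ARX1, between a Golgi protein gene and ARX1, a factor of ribosome export, held 17 for Cst6, against 1 in the background (ratio 24.2, 3.79 to 1012). SFK1-LPX2 held 14 against 3 (ratio 6.65, 1.85 to 36.1), and GAT1-PAU5, next to the end of the nitrogen-regulated activator gene GAT1, held 21 against 9 (ratio 3.32, 1.46 to 8.24). MET31-EGD1, next to the end of MET31, a zinc finger regulator of sulfur genes, held 20 against 10 (ratio 2.85, 1.27 to 6.81; Fisher's exact test, adjusted p = 0.0159). Of these 4, only GAT1-PAU5 lay within 2000 bp of a called region of another class, 1531 bp from FRS2-GAT1 with 100 insertions for Cst6 against 46.

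The fullest convergent regions for Cst6 each span another gene. AAC3-IST2 (chromosome 2, 416900 to 420195) spans YBR085C-A and lies between genes of a mitochondrial ADP/ATP carrier and of a tether of the endoplasmic reticulum. It held 830 insertions for Cst6, 2.20% of the library, against 70 in the background, a ratio of 16.9 (13.2 to 21.9; Fisher's exact test, adjusted p = 3.48e-230). AAT1-GFA1 (chromosome 11, 238535 to 242864) spans SEG2, a gene of eisosome assembly, and held 642 for Cst6 against 21 in the background (ratio 43.5, 28.2 to 70.8). YAP5-FLO11 (chromosome 9, 385343 to 389569) spans YIR018C-A between the iron-response factor YAP5 and the flocculin FLO11, and held 579 for Cst6 against 34 in the background (ratio 24.3, 17.2 to 35.4). FOB1-PDS1 (chromosome 4, 677800 to 680494), also chosen after its values were seen, spans ALT2, between the rDNA fork-block protein FOB1 and the securin PDS1, and held 458 for Cst6 against 28 in the background (ratio 23.3, 15.9 to 35.5). AAC3-IST2 alone held 22.6% of the Cst6 insertions in convergent regions.

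For Cbf1, 3 of the 4 called regions had no other gene. They came from 52 tested regions with no other gene and the fourth from 142 with another gene, beside 7.37% called higher over all regions. SDH7-EMI1 (chromosome 4, 1470411 to 1470493), only 83 bp long, separates SDH7, an assembly factor of succinate dehydrogenase, from EMI1. It held 16 insertions for Cbf1, against 2 in the background (ratio 19.5, 4.59 to 175; Fisher's exact test, adjusted p = 3.32e-06), and 0 to 2 in each of the other 11 libraries. The region upstream of SDH7, 400 bp away, was also called, with 20 for Cbf1 against 2. TPK2-AFT2 (chromosome 16, 167397 to 168087) separates TPK2, a catalytic subunit of protein kinase A, from AFT2, an activator of iron genes. It held 24 for Cbf1 against 11 in the background (ratio 5.33, 2.51 to 12; Fisher's exact test, adjusted p = 2.07e-05), 20 of the 24 within 100 bp, in 3 of 4 runs, and neither neighbouring region was called. This call was lost with positions merged and in the largest run alone. GPI15-IDH1 (chromosome 14, 557784 to 557921), chosen after its values were seen, held 8 for Cbf1 against 3 in the background (ratio 6.51, 1.56 to 38.1). This call held in 3 of 8 alternative settings and that of SDH7-EMI1 in 5 of 8, both lost with a minimum of 20 insertions, with positions merged and with at least 5 reads. GPI15-IDH1 lies 1081 bp from IDH1-NCE103, upstream of the isocitrate dehydrogenase gene IDH1, which held 1099 insertions for Cbf1 against 32.

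MET17-ACO1 (chromosome 12, 733878 to 735214) was the fourth region called for Cbf1 and the only convergent region called for Cbf1 bHLH-ZIP. It lies between the ends of MET17, the sulfhydrylase that makes homocysteine, and ACO1, aconitase, and spans the tRNA gene YNCL0038W. It held 50 insertions for Cbf1 against 15 in the background (ratio 8.14, 4.50 to 15.6; Fisher's exact test, adjusted p = 7.16e-14) and 22 for Cbf1 bHLH-ZIP against 15 (ratio 12.1, 6.0 to 25.1; Fisher's exact test, adjusted p = 5.03e-11). The other 10 libraries held 0 to 10. Of the 50 insertions, 44 lay in 100 bp that begin 810 bp from the MET17 edge, and of the 22, 19 lay in 100 bp that begin 812 bp from it. BY4741 carries a deletion of MET17, which BY4742 does not. The region upstream of MET17, 1333 bp away in the listed coordinates, held 176 for Cbf1, against 38 in the background, and 75 for Cbf1 bHLH-ZIP, against 38. That distance counts the MET17 gene and so does not hold for BY4741, in which both libraries were made.

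Gcr1 and Gcr2 shared 4 called regions. HIP1-TDH3 (chromosome 7, 882236 to 882817) is the only one with no other gene, between the histidine permease gene HIP1 and TDH3, which encodes the main glyceraldehyde-3-phosphate dehydrogenase. It held 15 insertions for Gcr1 against 7 in the background (ratio 6.92, 2.66 to 20.1; Fisher's exact test, adjusted p = 0.000399) and 13 for Gcr2 against 7 (ratio 3.94, 1.46 to 11.7; Fisher's exact test, adjusted p = 0.0339). The call held in 8 of 8 alternative settings for Gcr1 and in 5 of 8 for Gcr2. The other 10 libraries held 0 to 5. The promoter region of TDH3, TDH3-PDX1, lies 997 bp away across the gene and held 752 for Gcr1 and 690 for Gcr2, against 51 in the background.

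PDH1-AIM45, HEM15-MPC54 and POX1-KEX1 were the other 3. PDH1-AIM45 (chromosome 16, 559932 to 564004), next to a propionate catabolism gene, spans YPR003C and the tRNA gene YNCP0008C. It held 130 insertions for Gcr1 against 19 in the background (ratio 22.1, 13.6 to 37.9; Fisher's exact test, adjusted p = 9.52e-59) and 66 for Gcr2 against 19 (ratio 7.37, 4.37 to 13.0). HEM15-MPC54 (chromosome 15, 663583 to 665786), next to the ferrochelatase gene HEM15, spans the tRNA gene YNCO0021C. It held 61 for Gcr1 against 14 in the background (ratio 14.1, 7.78 to 27.2) and 25 for Gcr2 against 14 (ratio 3.79, 1.89 to 7.88). POX1-KEX1 (chromosome 7, 110408 to 112479), next to the gene of the acyl-CoA oxidase of peroxisomes, spans YGL204C and the tRNA gene YNCG0003C. It held 41 for Gcr1 against 14 in the background (ratio 9.46, 5.05 to 18.8) and 33 for Gcr2 against 14 (ratio 5.00, 2.60 to 10.1). In all 3 the insertions were concentrated: 89 of 130, 59 of 61 and 40 of 41 of the Gcr1 insertions lay within 100 bp. Many had little read support, with 69 of 130, 26 of 61 and 17 of 41 seen by 1 read, whereas the median over all insertions of the Gcr1 library was 10 reads. With at least 5 reads per insertion, PDH1-AIM45 and HEM15-MPC54 were still called for Gcr1, whereas POX1-KEX1 for Gcr1 and all 3 regions for Gcr2 were not. With positions within 5 bp merged in the libraries, none of these 6 calls held.

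**Figure D5:**
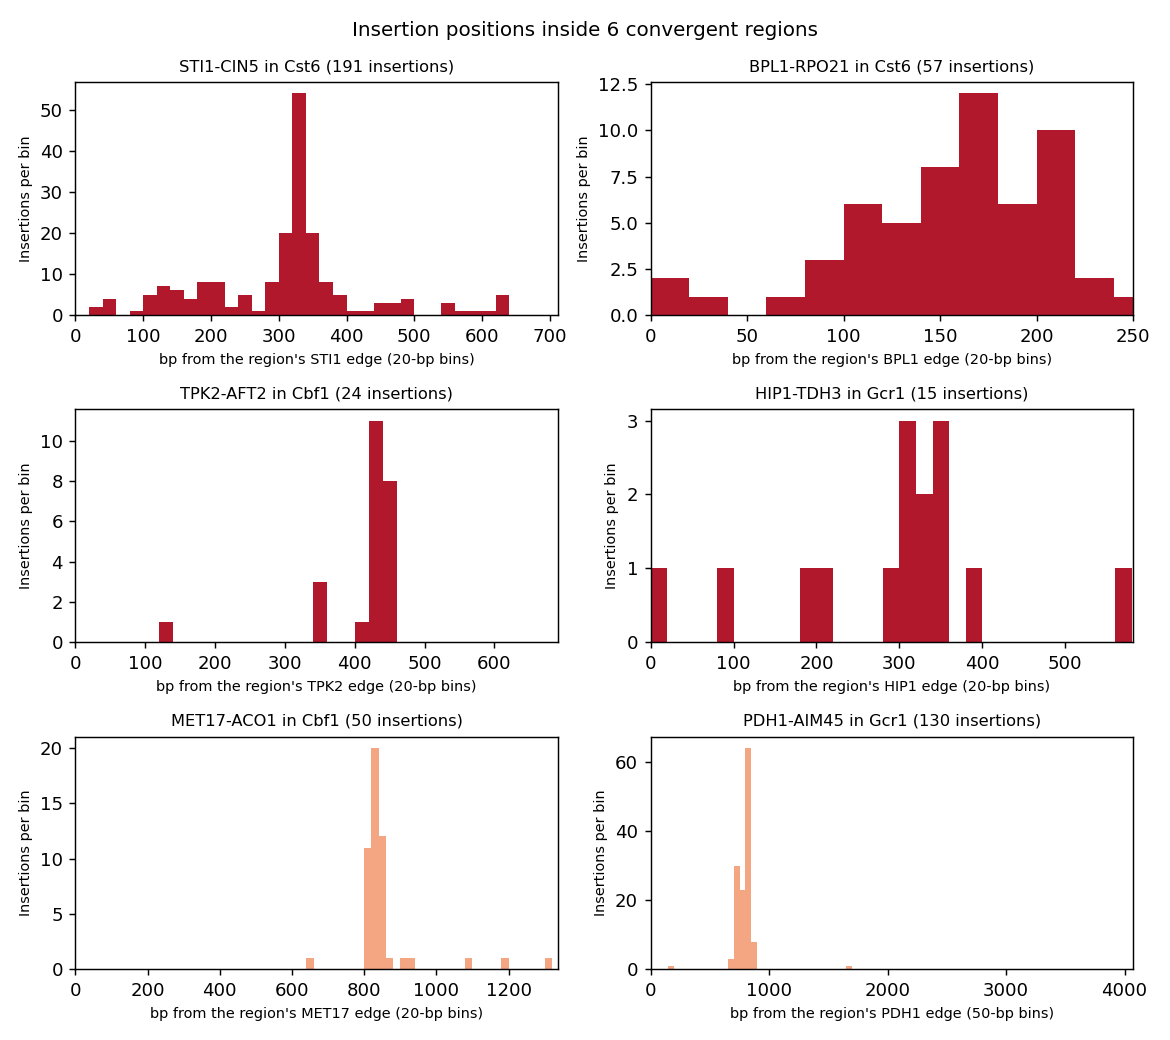
Positions of insertions inside 6 convergent regions, in bp from the edge on the side of the left gene (bins of 20 bp, or 50 bp for PDH1-AIM45). Dark bars are regions with no other gene and light bars regions that span one. The insertions gather in narrow windows, such as 111 of 191 within 100 bp in STI1-CIN5 and 89 of 130 within 100 bp in PDH1-AIM45.

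Regions that span a tRNA gene were above background for Gcr1 as a group, and called regions carried this. The grouping was chosen after the called regions had been seen, so their calls cannot serve as support for it. Of the 192 convergent regions with another gene, 33 span a tRNA gene and 159 do not. For Gcr1 the 33 held 2.29% of the insertions, against 1.04% in the background, a ratio of 2.19 (1.92 to 2.50), and the 159 held 1.96% against 4.19%, a ratio of 0.467 (0.414 to 0.524). The 6 regions with another gene that were called for Gcr1 were all among the 33: PDH1-AIM45, HEM15-MPC54, POX1-KEX1, ICE2-AVT7, the region between YKL154W and GPM1, and HSP104-SSA2, next to the genes of a disaggregase and an Hsp70 chaperone. For Gcr2 the ratio was 1.16 (1.00 to 1.33) for the 33 and 0.559 (0.510 to 0.612) for the 159. For Cst6 the order was the other way, with 0.267 (0.214 to 0.329) for the 33 and 1.92 (1.82 to 2.03) for the 159. Here too called regions carried much of it. AAC3-IST2, AAT1-GFA1, YAP5-FLO11 and FOB1-PDS1 held 830, 642, 579 and 458 of the 3049 Cst6 insertions in the 159. The background held 70, 21, 34 and 28 of its 2256 in them. The Cst6 ratio of the 159 without them was not computed. Without PDH1-AIM45, the fullest of the 33, the Gcr1 ratio was 1.5 (1.28 to 1.74). In the 27 of the 33 not called higher for Gcr1 it was 0.503 (0.383 to 0.652), near that of the 159. For Gcr2 the 30 not called higher had 0.751 (0.630 to 0.891). Leaving out called regions lowers these ratios by construction. Of the 6 calls, those of POX1-KEX1, ICE2-AVT7, HSP104-SSA2 and the YKL154W to GPM1 region were each lost in 3 of 8 alternative settings, among them at least 5 reads per insertion and the largest run alone. The log2 ratio turned negative for ICE2-AVT7 in the largest run (-1.82) and for HSP104-SSA2 with 5 reads (-2.07) and in the largest run (-0.42). ICE2-AVT7 was chosen after its values were seen. In other classes, regions with a tRNA gene between had a Gcr1 ratio of 1.81 (1.69 to 1.94) where tandem, 90 in number, and of 0.894 (0.816 to 0.978) where divergent, 61 in number.

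TEF1p-Tye7 gcr2D had 1 call. SOL1-ARC35 (chromosome 14, 691288 to 693021) spans EGO4, next to ARC35, a subunit of the Arp2/3 complex, and held 19 insertions for TEF1p-Tye7 gcr2D, against 48 in the background (ratio 3.46, 1.92 to 5.99; Fisher's exact test, adjusted p = 0.00200). Here the insertions were spread out, with 4 at most within 100 bp.

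Calls below background were about as common, or less so, as over all regions in the 4 libraries with the most of them. Cst6 had 72 of 149 tested convergent regions lower, beside 52.5% of all tested regions, Cbf1 had 54 of 194 beside 31.7%, Gcr2 13 of 150 beside 7.04%, Gcr1 6 of 136 beside 5.40%, and Cbf1 bHLH-ZIP with Tye7 basic region 2 of 177 beside 0.492%. The other 7 libraries had 0, beside 2.49% of all regions for Cbf1 bHLH-ZIP, 0.208% for Cbf1 bHLH, 0.0489% for TEF1p-Tye7, 0.0486% for TEF1p-Tye7 gcr2D and none for Tye7 and both NPAS2 libraries. TIM9-MMS21 had 0 insertions for Cbf1, against 43 in the background, and 3 for Cst6, against 46 (Fisher's exact test, adjusted p = 8.56e-06 for Cbf1 and 5.89e-07 for Cst6). HSP104-SSA2, called higher for Gcr1, was lower for Cst6 with 1 insertion against 40 (28.1-fold lower, 4.76 to 1137). AAC3-IST2, the fullest region for Cst6, was lower for Cbf1 with 12 against 89 and for Gcr1 with 5 against 70. RER1-CDC10, next to a septin gene, was lower for Cbf1, Gcr1, Gcr2 and Cst6, with 8 to 15 insertions against 87 or 92, and is among the 5 convergent regions with the most background insertions, with THO1-ICL1, AAC3-IST2, ENP2-NAT2 and MID2-RPS25B, which held 68 to 120 in the larger set. THO1-ICL1, next to the isocitrate lyase gene ICL1 of the glyoxylate cycle, was called higher in no library and held insertions in 12 of 12, from 0.0553 to 0.350% of a library, beside 120 insertions in the larger background set.

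RMD1-NTH1 (chromosome 4, 449274 to 450218), with no other gene and next to the neutral trehalase gene NTH1, was lower for Gcr1 with 0, Gcr2 with 1 and Cst6 with 2 insertions against 79. The 79 belong to the smaller background set. The larger set, with more insertions in all, held 4 there, so that the share in the smaller set was 24.3 times that in the larger (9.13 to 91.5; Fisher's exact test, adjusted p = 1.41e-19). This was the only convergent region called between the background sets, beside 0.318% of all regions called higher and 0.106% called lower in the smaller set. The 12 libraries held 0 to 2 insertions each. With the larger set as background, none of the 3 calls held.

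Insertions in regions with no other gene were related to how close a region lay to one of another class that was called higher in the same library. The near over far values were added after the data had been seen, and the near and far groups were set by the calls of that library. For Cbf1, the 62 regions within 2000 bp of a called region had a ratio to background of 0.914 (0.714 to 1.16), and the 850 farther away one of 0.326 (0.282 to 0.375). The near ratio over the far one was 2.80 (2.10 to 3.72). For Gcr2 it was 3.02 (1.84 to 4.87), for Gcr1 3.59 (2.08 to 6.0), for Cst6 7.33 (5.72 to 9.41), and intervals above 1 were also found for Cbf1 bHLH-ZIP, Cbf1 bHLH-ZIP with Tye7 basic region and NPAS2 bHLH with Cbf1 ZIP. In the other 5 libraries the interval held 1. Single regions carried much of this. Without STI1-CIN5 the near over far value for Cst6 was 1.55 (1.06 to 2.23), and without HIP1-TDH3 those for Gcr1 and Gcr2 were 1.5 (0.640 to 3.12) and 1.94 (1.03 to 3.47). Without DOM34-CIT1 the Cbf1 value was 2.62 (1.91 to 3.56), and without the fullest near region the intervals of the other 3 libraries held 1.

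Inside the 506 regions of 200 bp or more with no other gene, the 50 bp beside either gene held a smaller share of the insertions than of the length in 8 of 12 libraries, with intervals below that share. These margins made up 27.0% of the sequence and took 9.63% of the insertions for Gcr1 (5.23 to 15.9%), 14.1% for Cst6 (11.1 to 17.5%), and 16.7% for Cbf1 bHLH (13.6 to 20.2%). For Cbf1 they took 23.6% (18.4 to 29.4%), an interval that held the length share. These intervals treat insertions of the same region as independent. Of the 483 Cst6 insertions, 191 lay in STI1-CIN5, with 111 in the 100 bp that begin 288 bp from the STI1 edge. The Cst6 value without that region was not computed. The background sets came as counts per region, so their insertions beside the genes could not be compared.

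The genes of 3 pathways had 30 convergent regions at their ends. These lists, like the class itself, were chosen with earlier results of these data known. Genes of sulfate assimilation and methionine bordered 17 such regions, 13 with no other gene. They held 70 insertions for Cbf1, 0.258% of the library, against 0.142% in the background (ratio 1.82, 1.31 to 2.50), and 29 for Cbf1 bHLH-ZIP (ratio 2.55, 1.62 to 3.90), of which MET17-ACO1 gave 50 and 22. It was the only one of 5 tested regions of the list called in either library, higher in both, and MET31-EGD1 was the only one called for Cst6. Over all tested regions, 7.37% were called higher for Cbf1, 4.20% for Cbf1 bHLH-ZIP and 7.81% for Cst6. The median log2 ratio of the 17, with 1 insertion added to each count, was 0.29 for Cbf1, the same as over all 1104 regions. Of the 1104, 807 held 0 insertions for Cbf1, so this median is set by library depth and the added insertion. It does not show a level above background and cannot compare the list with the class.

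Genes of glycolysis and fermentation bordered 9 convergent regions, 4 with no other gene. They held 39 insertions for Gcr1, 0.234% of the library, against 0.130% in the background (ratio 1.80, 1.18 to 2.70), and 67 for Gcr2, with 0.264% against 0.130% (ratio 2.03, 1.43 to 2.88). For Cbf1 the same regions held 15, with 0.0553% against 0.193% (ratio 0.286, 0.156 to 0.490). The backgrounds differ. The smaller set, used for Gcr1 and Gcr2, held 70 insertions in the 9 regions, and the larger set, used for Cbf1, held 128. In HIP1-TDH3 the smaller set held 7 and the larger 20. Ratios for Gcr1 and Gcr2 over the larger set were not computed, so the contrast with Cbf1 rests partly on the background. Of 5 tested, HIP1-TDH3 was called for Gcr1 and Gcr2, and the region between YKL154W and the phosphoglycerate mutase gene GPM1 (chromosome 11, 162340 to 163647) for Gcr1 with 12 against 9 (ratio 4.31, 1.67 to 11.6; Fisher's exact test, adjusted p = 0.0180). For Gcr2 it also held 12 and was not called, and for Cbf1 it was called lower, with 0 against 17. Over all tested regions, 3.40% were called higher for Gcr1 and 3.10% for Gcr2. With the other background set, the calls of HIP1-TDH3 for Gcr2 and of the YKL154W to GPM1 region for Gcr1 were lost. That of HIP1-TDH3 for Gcr1 was kept. The median log2 ratio of the 9 was 0.37 for Gcr1, beside 0.69 over all 1104 regions, and 1.08 for Gcr2, beside 0.08. Of the 1104, 879 held 0 insertions for Gcr1 and 772 for Gcr2. Their medians are therefore again set by depth and the added insertion, and cannot be compared with those of the list. The 4 regions at the ends of phosphate genes, PHO8, PHO81, PHM6 and PHM8, held 0 to 4 insertions in a library, and none was tested.

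The convergent share differed by more than counting error in 7 of 7 pairs of libraries. The intervals do not cover the spread among the runs of a library. Runs had 2.59 to 3.67% for Cbf1, 2.35 and 2.39% for Cbf1 bHLH-ZIP, and 2.84 and 3.88% for Cbf1 bHLH-ZIP with Tye7 basic region. For Tye7 they had 5.33 to 7.46%, for TEF1p-Tye7 3.26 to 4.35% and for TEF1p-Tye7 gcr2D 5.48 to 6.04%. Tye7 had 6.84%, against 3.30% for Cbf1 (ratio 2.08, 1.90 to 2.27), a pair that differs in the factor and in the deleted gene of the host. Cbf1 bHLH-ZIP had 2.37%, against 3.30% for Cbf1 (ratio 0.718, 0.610 to 0.840), and Cbf1 bHLH, without the zipper, had 7.35%, against 2.37% for Cbf1 bHLH-ZIP (ratio 3.11, 2.67 to 3.62). NPAS2 bHLH with Cbf1 ZIP had 1.47%, against 6.92% for NPAS2 bHLH (ratio 0.212, 0.148 to 0.300). Cbf1 bHLH-ZIP with Tye7 basic region had 3.40%, against 2.37% for Cbf1 bHLH-ZIP (ratio 1.44, 1.18 to 1.75), a pair in which basic region and strain cannot be told apart. TEF1p-Tye7 had 3.60%, against 6.84% for Tye7 (ratio 0.526, 0.459 to 0.601), a pair that also differs in TYE7. TEF1p-Tye7 gcr2D had 5.73%, against 3.60% for TEF1p-Tye7 (ratio 1.59, 1.36 to 1.86). In the 912 regions with no other gene the ratio had the same direction in the 7 pairs, and only that of the Tye7 basic region pair, 1.30 (0.903 to 1.89), had an interval that held 1. With the regions called higher than background in either library left out, a choice again set by the calls, 4 of the 7 intervals held 1, those of Tye7 with Cbf1 (1.08, 0.987 to 1.19), Cbf1 bHLH-ZIP with Cbf1, the NPAS2 pair and the gcr2D pair.

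Tye7 had 12 of 41 tested convergent regions higher than Cbf1, beside 27.0% of all tested regions, and 3 lower, beside 19.9%. The 12 all span another gene, and the 3 were MET17-ACO1 with 1 against 50 insertions, TPK2-AFT2 with 1 against 24 and SDH7-EMI1 with 0 against 16. For MET17-ACO1 the ratio was 0.0339 (0.000842 to 0.198; Fisher's exact test, adjusted p = 2.14e-08). MET17-ACO1 was also lower for Cbf1 bHLH with 10 against 22 for Cbf1 bHLH-ZIP (ratio 0.142, 0.0601 to 0.313), beside 7.06% of all regions lower, and for Cbf1 bHLH-ZIP with Tye7 basic region with 1 against 22 for Cbf1 bHLH-ZIP (ratio 0.0505, 0.00122 to 0.312), beside 13.1% lower and 8.88% higher. In the Tye7 basic region pair the strains differ in MET17 itself, so basic region and strain cannot be told apart here. Cbf1 bHLH had 2 of 50 regions higher than Cbf1 bHLH-ZIP, beside 8.67% of all: BUD9-RME1, with 22 against 0, and MID2-RPS25B, with 30 against 1. TEF1p-Tye7 gcr2D had 2 of 10 higher than TEF1p-Tye7, beside 11.9% of all, and 0 lower, beside 5.93%: YAP5-FLO11, with 12 against 2 (ratio 6.01, 1.34 to 55.3), and SOL1-ARC35, with 19 against 6 (ratio 3.17, 1.22 to 9.71). No convergent region was called in the other 3 pairs. Of all regions tested, 1.4% were higher and 1.64% lower for Cbf1 bHLH-ZIP against Cbf1 (21 convergent regions tested), 59.7% and 4.84% for NPAS2 bHLH with Cbf1 ZIP against NPAS2 bHLH (2 tested), and 1.97% and 0.656% for TEF1p-Tye7 against Tye7 (26 tested).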

How the data were processed

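Insertions were read in 12 calling card libraries of genomic DNA, 1 per group. The submitters' processing notes name Novoalign, and no source used here names the genome build. The authors deposited, for each library, a list of insertion positions with the read count of each, and a table of regions with the count of hops (insertions) from the library and of a background set, both without and with 200 bp of added flank. The deposited Poisson p-value of the authors served for 1 alternative. The sources used here do not say how the background sets were made, so insertions they share could not be looked for.

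Each region was tested by a two-sided Fisher's exact test of insertions inside against outside it, where both sets together held 10 or more, with Benjamini-Hochberg adjustment. A call needed a ratio of 2 or more, with 1 insertion added to each count, and an adjusted p below 0.05. Intervals are exact at 95%, by Clopper-Pearson for a share and given the summed count for a ratio, and cover counting error only. A fold against 0 was computed against 3 insertions. The labels name no molecular identifiers, so reads of 1 insertion were not taken as independent molecules. Gene names and neighbours came from R64, and coordinates from the files. Of the 1104 regions, 4 overlap another listed region. Named were, per library, up to 3 regions called higher and 3 lower by smallest p, up to 2 each way per pair, the fullest region of each library, the 5 fullest in the larger background set, and called regions of the gene lists. Regions and lists were chosen with earlier results of these data known. The test was checked on simulated counts. Python 3.11.15, scipy and numpy were used.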

Additional observations from a re-analysis of the deposited data

How the results depend on the processing

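The density ratios of convergent to tandem and to divergent regions stayed below 1, with intervals below 1, under every alternative run. The share over background lost its call in 12 and changed direction in 5 of its recomputed values. With positions within 5 bp merged in the libraries (not possible for the background), it was 1.01 for Tye7, 1.01 for Cst6 and 0.999 for Cbf1 bHLH, lower calls numbered 5, the gcr2D pair ratio was 1.12 and higher pair calls 3. With at least 5 reads per insertion, NPAS2 bHLH had 0.855, and calls were 19 higher, 94 lower, 8 and 3 in the pairs. Outside the 10 fullest regions, Tye7 had 0.964, Gcr1 0.958 and Cst6 1.01, lower calls were 79, the gcr2D pair ratio 1.12 and higher pair calls 9. Widening regions by 200 bp gave Cst6 1.02. Regions at least 1000 bp from the next listed one gave Gcr1 0.915, 15 higher and 63 lower calls, and 8 higher pair calls. Without its fullest region Cst6 had 0.964. The largest run of each library alone gave 46 lower calls, and 1 higher and 3 lower in the pairs. A minimum of 20 insertions, or none, gave 10 higher pair calls. The next alternatives were chosen after seeing the data. Regions with no other gene gave Cst6 0.510, 11 higher and 18 lower calls, a Tye7 basic region pair ratio of 1.30, and 0 higher and 2 lower pair calls. Without regions called higher, Tye7 had 1.00, Cst6 0.768, NPAS2 bHLH with Cbf1 ZIP 0.812, the Tye7 basic region form 0.898 and Cbf1 bHLH 0.955, with pair ratios of 1.08 (Tye7 with Cbf1), 0.868 (Cbf1 bHLH-ZIP with Cbf1), 0.976 (NPAS2) and 1.02 (gcr2D). With the other background set NPAS2 bHLH had 0.870. Of the 29 higher calls, 11 held in 8 of 8 settings, 5 of them in regions with no other gene: HIP1-TDH3 for Gcr1, and BPL1-RPO21, GAT1-PAU5, STI1-CIN5 and MET31-EGD1 for Cst6. Some log2 ratios changed sign: with merging, HSP104-SSA2 for Cbf1 (0.053) and APC4-TRM1 (0.057), COG3-BUR6 (0.22), RPL26B-CAX4 (0.0065), CYT1-ALG8 (0.057) and ASN1-YPR148C (0.13) for Cst6; with 5 reads, HSP104-SSA2 for Gcr1 (-2.07); in the largest run, ICE2-AVT7 (-1.82) and HSP104-SSA2 (-0.42) for Gcr1 and POX1-KEX1 for Gcr2 (-0.34); with the other background set, RMD1-NTH1 for Gcr2 (0.063) and Cst6 (0.074). The causes were not tested, except that merging acts on the library alone. No paired analysis was possible because each group holds 1 library. Depth limits the NPAS2 libraries, where 3 insertions are 0.124% and 0.105% of the intergenic total.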
